A study of Mus musculus with 6 samples.

Results

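The genes described here are 35 named genes of the endoplasmic reticulum (ER) folding and protein export machinery. They were listed by name and function: stress sensors, chaperones, oxidoreductases, factors of ER-associated degradation, the translocon and the coat of export vesicles. The rule names genes by function and uses no measured value, but the list was drawn up with earlier results of these data known. Of the 35, 34 had a probe set carrying exactly 1 gene symbol, among 22180 such genes on the array, and 33 were bright enough to be tested, among 14787 genes tested. Pdia4 shares its probe set with a second symbol and was not analysed here. Derl3 lay under the limit for dim genes and was not tested.

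The comparison asks how CD4+ T cells respond to scarce arginine during activation. Spleens and non-mesenteric lymph nodes came from 6 OT II transgenic mice, whose CD4+ T cells recognise an ovalbumin peptide, at 12 to 16 weeks of age. CD4+ cells were enriched by removing cells that carry B220, I-A/I-E, CD11b, CD49b or CD8α, and were cultured for 72 h with antigen-presenting cells and 0.1 µM peptide in RPMI-1640 with 10% dialyzed serum. The low arginine group (3 arrays) had 1% of the normal arginine, 12 µM, the control group (3 arrays) had the complete medium, and CD4+ cells were purified again before RNA was extracted for a 1-colour whole-transcript array. Both groups share the transgene, peptide, presenting cells, serum and culture time. The replicates are labelled biological, but the labels do not say whether each is 1 mouse, a pool, or a culture shared in origin with the same number in the other group. If they are not from separate animals, p-values measure only the spread between cultures.

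Most secreted and membrane proteins enter the ER through the Sec61 translocon, fold with the help of Hsp70- and Hsp90-type chaperones, lectins and disulfide isomerases, and leave in vesicles coated by COPII. Proteins that fail to fold are pulled back out and degraded. When folding capacity is short, the unfolded protein response adjusts it through the sensors IRE1 (Ern1), ATF6 and PERK (Eif2ak3): IRE1 splices the Xbp1 mRNA, ATF6 is released by the site-1 and site-2 proteases Mbtps1 and Mbtps2, and PERK slows translation. Activated lymphocytes enlarge this machinery as they begin to secrete cytokines. Probe sets here report a gene's total signal, so spliced and unspliced Xbp1 cannot be told apart.

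The promoters of several of these genes hold the ER stress element, first described in human GRP78, GRP94 and calreticulin genes, to which ATF6 and XBP1 bind together with the factor NF-Y. RefSeq promoter windows (GRCm38.p6, 250 bases before to 50 after the start) matched 29 of the 35 genes. The letters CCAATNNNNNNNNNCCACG, searched on both strands, were in the windows of 9 of these 29 genes (31%), against 37 of 27025 genes with a window (0.137%). The copies are shown because the same genes recur below for the behaviour of 1 control array. Capitals mark the fixed letters, and each copy is written in the direction of the motif.
Hspa5, chr2:34772025-34772043, plus strand: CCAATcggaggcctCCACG
Hsp90b1, near copy, chr10:86705533-86705551, plus strand: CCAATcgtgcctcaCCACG
Hsp90b1, far copy, chr10:86705638-86705656, minus strand: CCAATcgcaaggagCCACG
Dnajc3, chr14:118937827-118937845, plus strand: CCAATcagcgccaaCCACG
Creld2, chr15:88819520-88819538, minus strand: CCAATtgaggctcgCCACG
Calr, chr8:84847075-84847093, plus strand: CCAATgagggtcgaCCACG
Canx, chr11:50325800-50325818, minus strand: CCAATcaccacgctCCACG
Pdia6, chr12:17266491-17266509, plus strand: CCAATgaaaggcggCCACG
Syvn1, chr19:6046532-6046550, plus strand: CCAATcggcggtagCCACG
Derl3, chr10:75893242-75893260, minus strand: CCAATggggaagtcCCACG
In Hspa5 the copy lies 65 to 47 bases before the start. The copies lie within 212 bases before the start, the farthest being the far copy of Hsp90b1. The near copy of Hsp90b1 and the copies of Calr, Creld2 and Derl3 run on the strand opposite to the gene, and the others on the gene's own strand.

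A related form, ER stress element II, with the letters ATTGGNCCACG on both strands, was in the windows of 2 of the 29 genes (6.9%), Herpud1 and Dnajb11, against 12 of the 27025 genes (0.0444%). Herpud1, which rose in low arginine under every setting tried, is shown with its whole window. It also held the 8 letters TGATGNAA, the core of the element bound by C/EBP-ATF dimers such as those of ATF4. No other of the 29 windows held this core. The share was 3.45%, no higher than the 4.51% of all genes with a window (1219 of 27025). The window lies at chr8:94386179-94386478 on the plus strand. Capitals mark the fixed letters of the C/EBP-ATF core, which runs on the opposite strand, and of ER stress element II 52 to 42 bases before the start.
Herpud1: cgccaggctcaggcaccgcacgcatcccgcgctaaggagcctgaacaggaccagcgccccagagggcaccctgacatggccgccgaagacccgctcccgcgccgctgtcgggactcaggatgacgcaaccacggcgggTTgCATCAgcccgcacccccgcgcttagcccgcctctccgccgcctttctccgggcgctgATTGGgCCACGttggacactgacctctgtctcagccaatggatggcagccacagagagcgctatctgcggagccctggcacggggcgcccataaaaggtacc
These matches describe letters in the windows, and binding was not measured.

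Low arginine gave a divided picture across the 33 genes tested. The disulfide isomerase P4hb fell to a 3.08-fold lower array signal, and the Hsp90 chaperone Hsp90b1, the stress factor Xbp1, the translocon-associated Ssr3 and the coat subunit Sec24d fell as well. Dnajb9, Herpud1 and Sel1l, of which the last 2 serve degradation, rose by 1.44- to 1.77-fold. The other 25 genes, among them the main ER Hsp70, Hspa5, did not pass the test. A second feature ran through the set: control replicate 1 carried much higher levels of most folding genes than control replicates 2 and 3, and many of the results depend on whether it is included.

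With all 6 arrays, limma called 3 genes higher and 5 lower at a Benjamini-Hochberg adjusted p under 0.05, which is 24.2% of the 33. Of all genes tested 12.2% were called, 5.19% higher and 6.98% lower. The median change over the 33 genes was -0.17 on the log2 scale, against 0.01 over all genes. Levels in the groups did not overlap for 4 genes higher and 10 genes lower in low arginine, and the share of all genes without overlap was 32.2%. Centring the arrays on their 75th percentile turned the split of all called genes to 535 higher and 1190 lower, against 767 and 1032 in the main setting, and gave 3 higher and 6 lower among the 33.

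Control replicate 1 must be described before the single genes. It was the highest of all 6 arrays for 26 of the 33 genes (78.8%), whereas it was highest for 22.5% of all genes tested. Its level was above the mean of control replicates 2 and 3 by a median of 0.57 on the log2 scale over the 33 genes, against 0.01 over all genes, and by at least 1 for 9 of them (27.3%, against 1.8% of all genes). The Hsp70 and Hsp90 group carried the most of it, with a median excess of 1.15 over 10 genes, and the sensors and degradation factors the least, with 0.34 over 3 genes and 0.41 over 8. The excess was 1.95 for Sdf2l1, 1.69 for Dnajb11, 1.63 for Creld2 and 1.60 for Hyou1. It was absent from P4hb (-0.05), Sel1l (-0.04), Ern1 (-0.01) and Herpud1 (0.01). In Edem3 it was turned (-0.19), with control replicate 1 the lowest control.

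**Figure D1:**
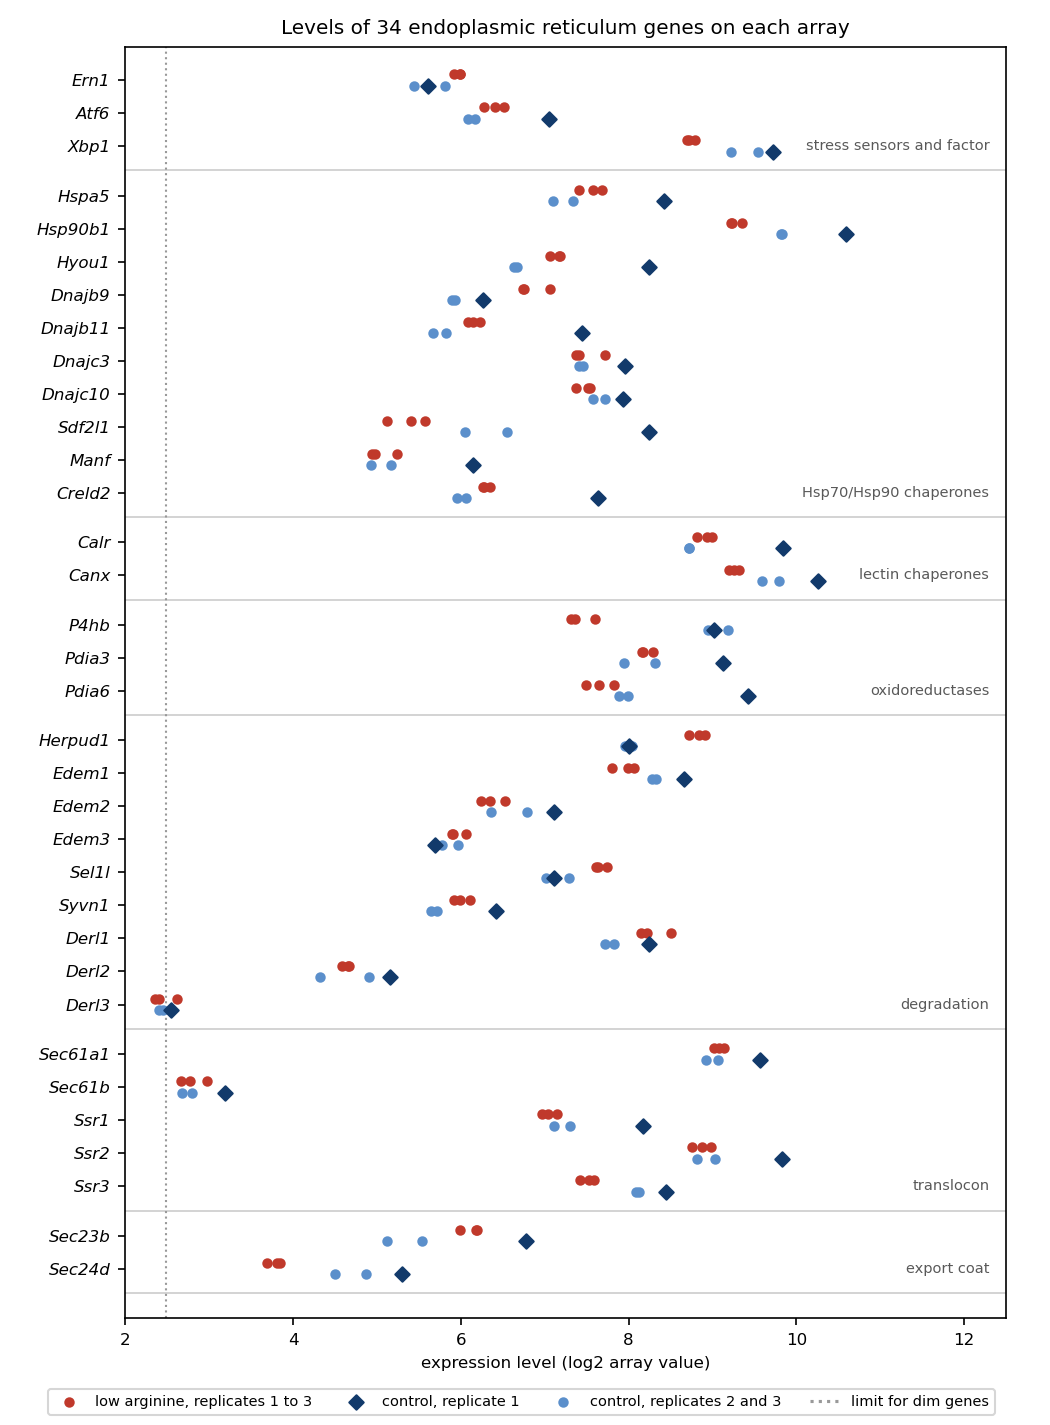
Level of each of 34 genes on each array (log2 array value, horizontal), in rows by role. Red points are the 3 low arginine arrays, drawn on the upper line of each gene's row, with the controls on the lower line. Dark diamonds are control replicate 1, blue points control replicates 2 and 3, and the dotted line is the limit of 2.48 for dim genes. Control replicate 1 is the rightmost symbol for most chaperones, and P4hb shows 3 controls close together, all to the right of the low arginine arrays.

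The low arginine arrays varied little. The median range over the 3 low arginine arrays was 0.18 on the log2 scale for the 33 genes, against a median range of 0.78 over the 3 control arrays, and the control range was the larger for 31 of the 33 genes (93.9%, against 65.9% of all genes tested). Among all genes the median ranges were 0.23 in low arginine and 0.34 in control. For 8 of the 33 genes (24.2%), against 5.27% of all genes, every low arginine array lay between control replicate 1 and the other controls, so that the sign of the difference depends on which controls it is taken against. Hspa5, Hyou1, Dnajb11, Creld2 and Calr are among them.

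Without control replicate 1, a setting singled out after its values were seen, 7 of the 33 genes were higher and 7 lower (42.4%). In this setting 22.5% of all genes tested were called, 11.0% higher and 11.5% lower. The median change over the 33 genes was then 0.07. Xbp1, Hsp90b1, P4hb, Dnajb9, Herpud1, Sel1l, Ssr3 and Sec24d were called in the same direction in both settings. Hyou1, Dnajb11, Derl1 and Sec23b were called higher, and Sdf2l1 and Canx lower, in this fit and not with all arrays. What sets this array apart was not tested.

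**Figure D2:**
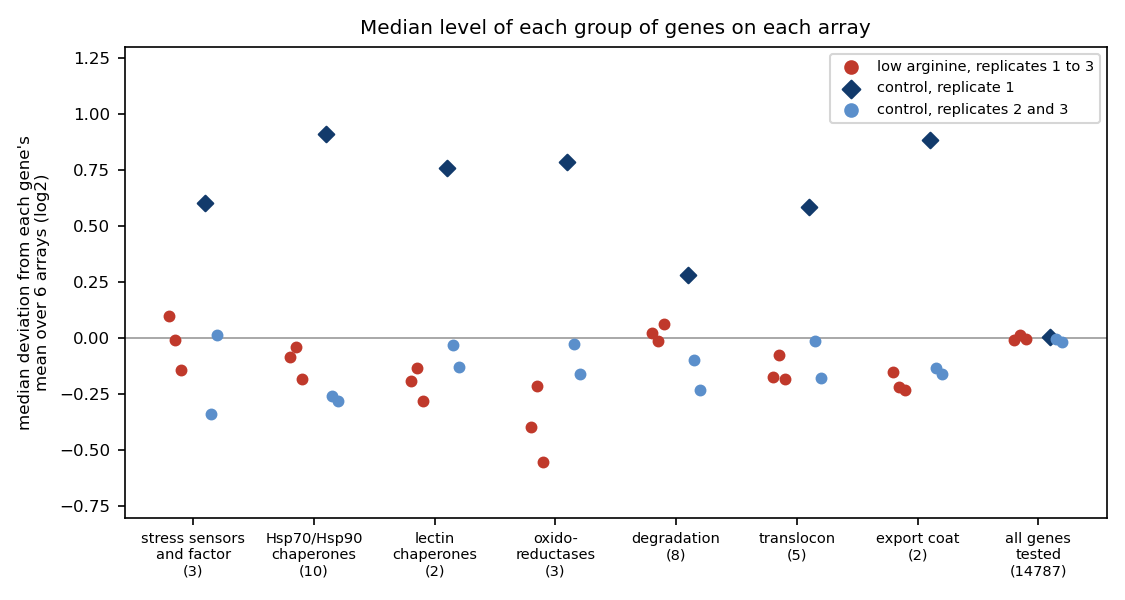
Median deviation of each group of genes from each gene's mean over the 6 arrays (log2, vertical), with 1 symbol per array and the number of genes tested in brackets. Red points are low arginine, dark diamonds control replicate 1 and blue points control replicates 2 and 3. Control replicate 1 stands at 0.91 for the group of Hsp70 and Hsp90 chaperones, which includes their partners, and at 0.00 for all genes tested.

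The stress sensors and their factor differed from one another. Xbp1, the transcription factor that IRE1 activates by splicing, had levels of 8.72, 8.69 and 8.79 in low arginine, against 9.72, 9.54 and 9.23 in control. All low arginine arrays lay under all controls. Xbp1 fell by 0.76 ± 0.14 on the log2 scale (SE, n = 3 each, adjusted p = 0.0157), a 1.70-fold lower signal, and by 0.65 without control replicate 1 (adjusted p = 0.0104). Its adjusted p was between 0.0544 and 0.0754 when low arginine replicate 1, 2 or 3 or control replicate 2 was left out.

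Ern1, the sensor that splices Xbp1, had levels of 5.99, 5.92 and 6.00 in low arginine, against 5.61, 5.44 and 5.81 in control. The groups did not overlap, but the difference of 0.35 did not pass the test (adjusted p = 0.116). Array weights called Ern1 higher (0.48, adjusted p = 0.00441). Atf6, the sensor cut by the site proteases, had levels of 6.51, 6.41 and 6.28 in low arginine, against 7.05, 6.08 and 6.16 in control. Its low arginine arrays lay between control replicate 1 and the others, and the difference was -0.03 with all arrays (adjusted p = 0.953) and 0.28 without control replicate 1 (adjusted p = 0.135).

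Among the 10 genes of the Hsp70 and Hsp90 chaperones and their partners, 1 rose and 1 fell. Hsp90b1, the ER form of Hsp90, had levels of 9.22, 9.35 and 9.23 in low arginine, against 10.59, 9.81 and 9.83 in control. Every control lay above every low arginine array. The difference was -0.81 ± 0.21 (SE, adjusted p = 0.0462), a 1.75-fold lower signal, and -0.55 without control replicate 1 (adjusted p = 0.00956). The adjusted p was between 0.0503 and 0.147 without any 1 of the low arginine arrays or of control replicates 2 and 3, 0.0553 with replicate number as a block and 0.0555 with no filter on dim genes.

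Dnajb9, a J-domain partner of Hspa5 that holds IRE1 in check, was the only one of the group that rose with all arrays. Its levels were 6.74, 6.75 and 7.06 in low arginine, against 6.27, 5.94 and 5.90 in control, without overlap. It rose by 0.81 ± 0.15 (SE, adjusted p = 0.0145), 1.76-fold, and by 0.93 without control replicate 1 (adjusted p = 0.00316). The adjusted p was between 0.0565 and 0.0703 without low arginine replicate 2 or 3 or control replicate 2.

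Hspa5, the Hsp70 of the ER also called BiP, had levels of 7.58, 7.68 and 7.41 in low arginine, against 8.42, 7.10 and 7.33 in control. Control replicate 1 was the highest array and the other controls the lowest ones. The difference was -0.06 with a 95% confidence interval of -0.79 to 0.67 (adjusted p = 0.931), and 0.34 without control replicate 1 (adjusted p = 0.11). That interval holds both a rise and a fall of over 1.5-fold, so these arrays do not settle its direction.

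The same layout recurred in 3 partners of Hspa5. Hyou1, a large Hsp70 relative that exchanges its nucleotide, had levels of 7.17, 7.18 and 7.06 in low arginine, against 8.24, 6.63 and 6.66 in control. Dnajb11, a J-domain co-chaperone, had levels of 6.14, 6.22 and 6.09 in low arginine, against 7.44, 5.82 and 5.67 in control. Creld2, a stress-induced ER protein, had levels of 6.35, 6.27 and 6.27 in low arginine, against 7.63, 6.06 and 5.95 in control. In each, control replicate 1 stood more than 1 log2 unit above all low arginine arrays and the other controls stood under them. Without control replicate 1 the differences were 0.49 for Hyou1 (adjusted p = 0.0146), 0.41 for Dnajb11 (adjusted p = 0.0351) and 0.29 for Creld2 (adjusted p = 0.0874), where with all arrays they were -0.04, -0.16 and -0.25 (adjusted p = 0.963, 0.861 and 0.758).

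Sdf2l1, a small partner of the Hspa5 and Dnajb11 chaperones, had levels of 5.41, 5.57 and 5.12 in low arginine, against 8.24, 6.55 and 6.04 in control. All controls were higher than all low arginine arrays, with 2.20 log2 units between the highest and lowest control. The difference was -1.58 (adjusted p = 0.0832) with all arrays, -0.93 without control replicate 1 (adjusted p = 0.012) and -2.03 without control replicate 3 (adjusted p = 0.0411). Dnajc10, a J-domain reductase of disulfides, did not overlap between groups, with a difference of -0.27 (adjusted p = 0.224). The co-chaperone Dnajc3 and the secreted factor Manf overlapped, with differences of -0.11 and -0.36 (adjusted p = 0.765 and 0.499).

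**Figure D3:**
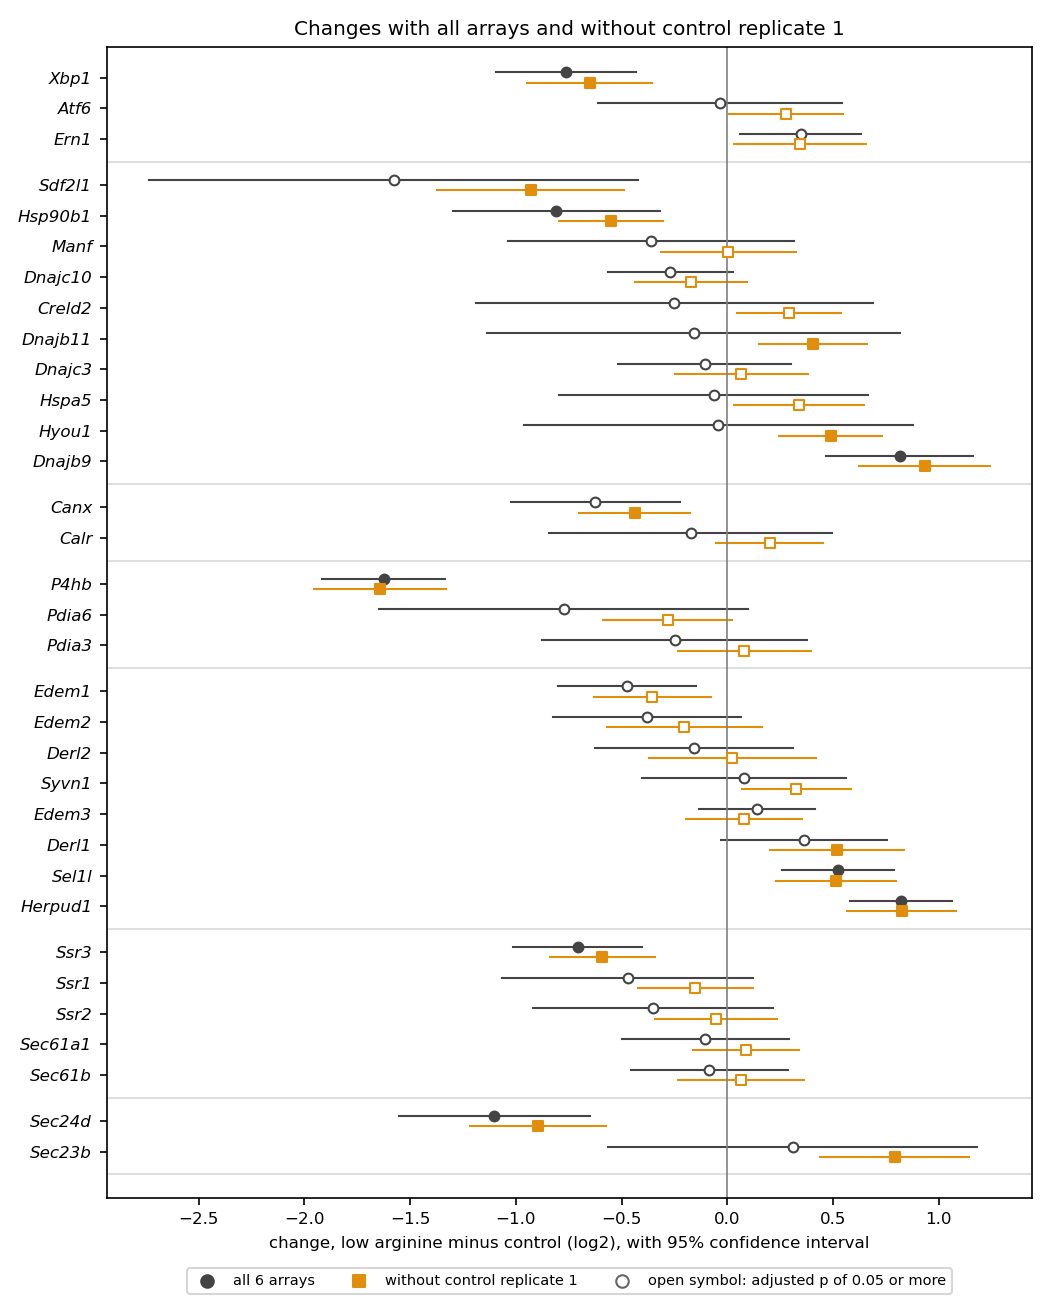
Change of each of 33 genes, low arginine minus control (log2, horizontal), with its 95% confidence interval, in rows by role. Dark circles use all 6 arrays and orange squares leave out control replicate 1, and filled symbols have an adjusted p under 0.05 by limma. The interval of Hyou1 runs from -0.96 to 0.88 with all arrays, while P4hb stays at -1.63 and -1.64.

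The lectin chaperones hold glycoproteins while they fold. Canx, the membrane-bound calnexin, had levels of 9.25, 9.31 and 9.20 in low arginine, against 10.25, 9.79 and 9.59 in control. The groups did not overlap, and the difference was -0.63 (adjusted p = 0.0545) with all arrays, -0.44 without control replicate 1 (adjusted p = 0.0292) and -0.77 without control replicate 3 (adjusted p = 0.0354). Under 75th percentile centring Canx was the sixth gene called lower (adjusted p = 0.0469). Calr, the soluble calreticulin, had levels of 8.94, 9.00 and 8.82 in low arginine, against 9.84, 8.72 and 8.72 in control. Its low arginine arrays lay between control replicate 1 and the rest, with differences of -0.17 (adjusted p = 0.767) and, without that array, 0.20 (adjusted p = 0.241).

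The oxidoreductases form and shuffle disulfide bonds. P4hb, the founding protein disulfide isomerase, had levels of 7.36, 7.60 and 7.31 in low arginine, against 9.02, 9.19 and 8.95 in control. The lowest control was more than 1 log2 unit above the highest low arginine array, and the controls were close together. P4hb fell by 1.63 ± 0.13 (SE, n = 3 each, adjusted p = 0.000676). The difference was -1.64 without control replicate 1 (adjusted p = 0.000347), and it was called in all 15 alternative settings. Pdia6, a related isomerase, had levels of 7.65, 7.83 and 7.49 in low arginine, against 9.42, 7.99 and 7.88 in control. It did not overlap, yet its difference of -0.77 did not pass (adjusted p = 0.237) and was -0.28 without control replicate 1 (adjusted p = 0.172). Pdia3, the isomerase that works with the lectins, overlapped, with a difference of -0.25 (adjusted p = 0.626).

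Of the 8 degradation factors tested, 2 rose and none passed in the other direction with all arrays. Herpud1, a membrane protein that helps to assemble the retrotranslocation complex, had levels of 8.72, 8.90 and 8.84 in low arginine, against 8.01, 8.04 and 7.96 in control. The controls lay within 0.0845 of each other and under all low arginine arrays. Herpud1 rose by 0.82 ± 0.10 (SE, adjusted p = 0.00474), 1.77-fold, by 0.82 without control replicate 1 (adjusted p = 0.00255), and was called in all 15 alternatives. Sel1l, the adaptor of the ubiquitin ligase Syvn1, had levels of 7.63, 7.74 and 7.62 in low arginine, against 7.11, 7.02 and 7.28 in control, again without overlap. It rose by 0.52 ± 0.11 (SE, adjusted p = 0.0262), 1.44-fold. Its adjusted p was 0.0218 without control replicate 1, between 0.0731 and 0.11 without any 1 of the low arginine arrays or control replicate 2, and 0.056 with replicate number as a block.

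The remaining degradation factors did not pass with all arrays. Derl1, a channel protein of the retrotranslocation complex, had levels of 8.14, 8.50 and 8.22 in low arginine, against 8.24, 7.82 and 7.71 in control. Only control replicate 1 reached the low arginine levels, and the difference was 0.36 (adjusted p = 0.217) with it and 0.52 without it (adjusted p = 0.0306). The ligase Syvn1 had differences of 0.08 and, without that array, 0.33 (adjusted p = 0.86 and 0.0729). Edem1, which marks glycoproteins for disposal, had levels of 8.06, 7.99 and 7.80 in low arginine, against 8.66, 8.33 and 8.28 in control. Its groups did not overlap, with a difference of -0.47 (adjusted p = 0.0692). Array weights called both Edem1 and Edem2 lower (adjusted p = 0.0119 and 0.026). The differences of Edem2, Edem3 and Derl2 were -0.38, 0.14 and -0.16 (adjusted p = 0.257, 0.515 and 0.693). Derl3 had levels of 2.36 to 2.62 in low arginine, against 2.40 to 2.55 in control, around the limit for dim genes.

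In the translocon, where new chains enter the ER, 1 of 5 genes passed. Ssr3, a subunit of the translocon-associated protein complex, had levels of 7.42, 7.59 and 7.53 in low arginine, against 8.45, 8.12 and 8.09 in control. All controls were higher, and Ssr3 fell by 0.71 ± 0.13 (SE, adjusted p = 0.0153), 1.63-fold, and by 0.59 without control replicate 1 (adjusted p = 0.00789). The adjusted p was between 0.055 and 0.0657 without any 1 of the low arginine arrays or control replicate 2. Ssr1 and Ssr2, subunits of the same complex, overlapped between groups, with differences of -0.47 and -0.35 (adjusted p = 0.29 and 0.423). A second, dimmer probe set of Ssr1 gave -0.56 (adjusted p = 0.124). The channel subunit Sec61a1 differed by -0.10 (adjusted p = 0.765) and Sec61b, whose brighter probe set is close to the limit for dim genes, by -0.09 (adjusted p = 0.794). A second probe set of Sec61b lay under that limit and was not tested. It differed by -0.54, with levels of 2.09, 2.32 and 2.15 in low arginine, against 2.82, 2.60 and 2.76 in control.

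Of the COPII coat subunits, 1 of 2 passed. Sec24d, a cargo-binding subunit, had levels of 3.81, 3.69 and 3.85 in low arginine, against 5.30, 4.50 and 4.87 in control. All low arginine arrays lay under all controls, and Sec24d fell by 1.10 ± 0.19 (SE, adjusted p = 0.0134), 2.15-fold, and by 0.90 without control replicate 1 (adjusted p = 0.00422). Its adjusted p was 0.0663 without low arginine replicate 2 and 0.0532 without replicate 3. Sec23b, of the inner coat, had levels of 6.19, 6.18 and 5.99 in low arginine, against 6.78, 5.54 and 5.11 in control. Control replicate 1 was the highest and the other controls the lowest arrays. The difference was 0.31 (adjusted p = 0.671) with all arrays and 0.79 without control replicate 1 (adjusted p = 0.00958). It was -0.0399 without control replicate 3, so its direction is not settled.

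The genes that hold the ER stress element were compared with the others for the behaviour of control replicate 1. Among the 8 tested genes with the element, control replicate 1 was the highest of all arrays for 8, with a median excess over the other controls of 0.94 and a lowest excess of 0.52 for Dnajc3. Among the 19 with a window and no such element it was highest for 13, with a median excess of 0.36. The division is not clean: Sdf2l1 and Dnajb11 had the highest excesses and held no ER stress element in the window, although Dnajb11 held ER stress element II 7 to 17 bases after its start. The change with low arginine had a median of -0.21 in the genes with the element and -0.25 in those without. Leaving out control replicate 1 turned these medians to 0.13 and 0.02, so their sign rests on that array. All of the 8 genes except Syvn1 are chaperones, lectins or oxidoreductases. Over the 15 tested genes of those roles, with or without the element, control replicate 1 was highest for 13, with a median excess of 1.09. Among them, the genes with a window and no such element ran from -0.05 for P4hb to 1.95 for Sdf2l1. Element and role overlap in most of these genes, and what belongs to each was not separated here. These values were not tested, and 6 genes had no window in the table used.

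**Figure D4:**
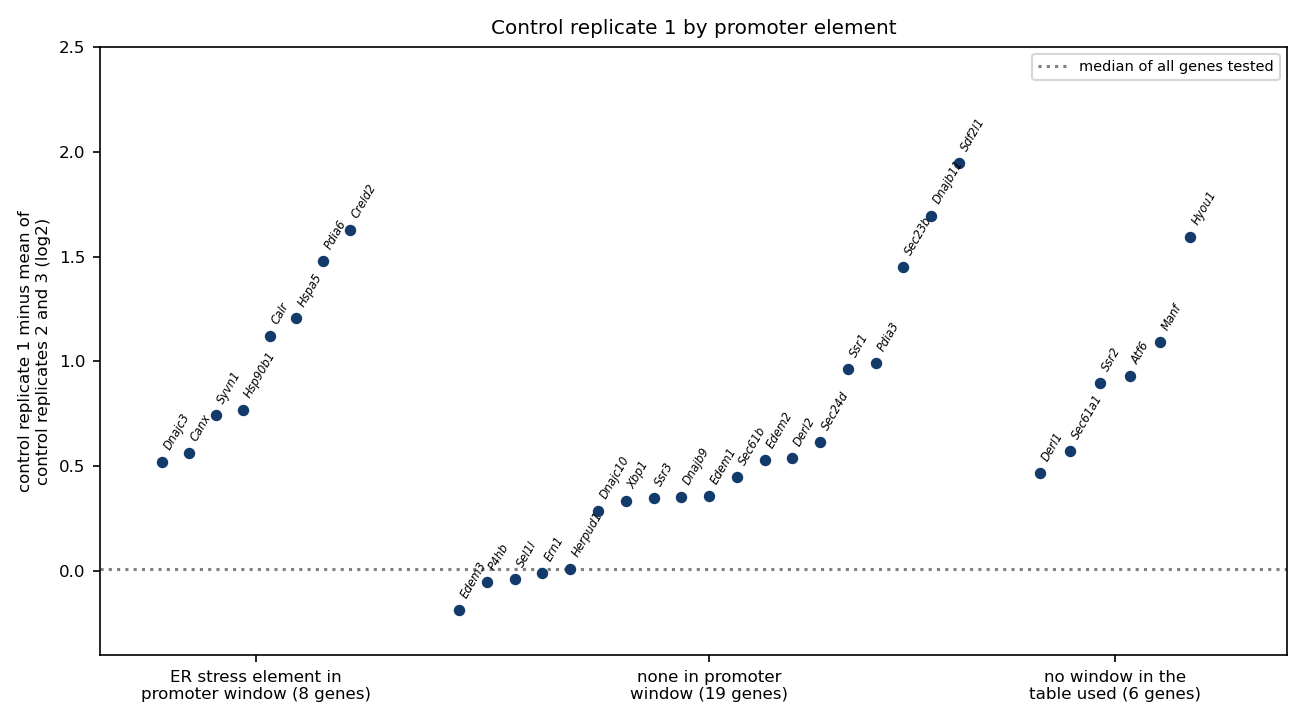
Control replicate 1 minus the mean of control replicates 2 and 3 (log2, vertical) for each of 33 genes, sorted by whether the promoter window holds the ER stress element. The dotted line is the median of all genes tested. The 8 genes with the element lie between 0.52 and 1.63, and the genes near 0 are all in the group without it.

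Further genes of the pathway, 112 by name, were read from the same fit. Of the 104 tested, 3 rose and 11 fell (13.5% called, against 12.2% of all genes), with a median change of -0.10. Without control replicate 1 the counts were 11 and 15 (25.0%, against 22.5% of all genes). Control replicate 1 was the highest array for 56 of the 104 (53.8%), with a median excess of 0.21.

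Among genes of targeting and translocation, 4 of 20 fell and none rose. Spcs3, a subunit of signal peptidase, had levels of 7.72, 7.77 and 7.31 in low arginine, against 8.98, 8.78 and 8.45 in control, and fell by 1.14 (adjusted p = 0.00958). Sec11c, a catalytic subunit of the same enzyme, had levels of 6.39, 6.53 and 6.12 in low arginine, against 7.45, 7.21 and 7.31 in control, and fell by 0.97 (adjusted p = 0.00685). The groups did not overlap in either gene. The other 2 that fell were Sec61g of the channel and Srp72 of the signal recognition particle, named after their values were seen. The adjusted p of Spcs3 was 0.0517 without control replicate 2. In N-glycan transfer and trimming, 1 of 15 fell, the oligosaccharyltransferase subunit Tusc3, by 0.63 (adjusted p = 0.0114, and between 0.0544 and 0.0602 without low arginine replicate 2 or 3 or control replicate 2).

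Among the other folding factors 4 of 16 fell. Ero1a, the oxidase that recharges P4hb with disulfides, had levels of 8.74, 8.81 and 8.53 in low arginine, against 9.75, 10.44 and 10.51 in control. Here control replicate 1 was the lowest control, and the difference was -1.54 ± 0.21 (SE, adjusted p = 0.00583), a 2.91-fold lower signal, and -1.78 without that array (adjusted p = 0.000174). Its paralogue Ero1b had levels of 4.47, 4.72 and 4.67 in low arginine, against 4.69, 4.56 and 4.83 in control, which overlap, with a difference of -0.07 (adjusted p = 0.776). Fkbp2, a prolyl isomerase of the ER, fell by 1.27 (adjusted p = 0.0117, and between 0.0501 and 0.0602 without low arginine replicate 2 or 3 or control replicate 2). The other 2 were the thiol oxidoreductases Prdx4 and Txndc5, named after their values were seen.

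Of 16 other degradation factors limma called none at the adjusted threshold. Its unadjusted p was under 0.05 for 4 of them, against 4032 of all 14787 genes tested, which is a similar share. In vesicle export and retrieval 1 of 22 rose and 1 fell. Sec16a, a scaffold of ER exit sites, rose by 0.41 (adjusted p = 0.0487), and lost the call when any array other than control replicate 1 was left out (adjusted p between 0.088 and 0.168), under both centrings (adjusted p = 0.0727 and 0.104) and with the replicate block (adjusted p = 0.0944). Kdelr1, a receptor that returns escaped ER proteins, fell by 0.78 (adjusted p = 0.0203, and between 0.0537 and 0.0882 without low arginine replicate 1 or 2 or control replicate 2 or 3).

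Of 15 other stress signalling genes 2 rose and 1 fell. Mbtps1, the site-1 protease that cuts ATF6, had levels of 6.86, 6.72 and 6.72 in low arginine, against 6.32, 6.17 and 6.38 in control. Mbtps2, the site-2 protease, had levels of 5.45, 5.43 and 5.59 in low arginine, against 5.07, 4.96 and 4.81 in control. Neither gene overlapped, and the rises were 0.48 and 0.54 (adjusted p = 0.0314 and 0.0241), with adjusted p of 0.0562 and 0.0538 under the replicate block. Both calls were lost without any 1 of the low arginine arrays or control replicate 2 (adjusted p up to 0.117), and that of Mbtps2 also without control replicate 3 (adjusted p = 0.0581). Creb3l2, an ER-bound transcription factor cut by the same proteases, fell by 1.27 (adjusted p = 0.00474).

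The sensor PERK and the genes of the branch below it did not pass in the main setting. Eif2ak3 had levels of 5.70, 5.53 and 5.73 in low arginine, against 6.10, 6.01 and 5.96 in control, without overlap, and a difference of -0.37 (adjusted p = 0.0693). Eif2ak3 was called lower after quantile normalization (-0.41, adjusted p = 0.0451) and with array weights (-0.37, adjusted p = 0.00855). Atf4, the factor translated when eIF2α is phosphorylated, differed by 0.14 (adjusted p = 0.583), and Ppp1r15a, the phosphatase subunit that restores translation, by 0.18 (adjusted p = 0.604). Trib3, a target of this branch named after its values were seen, had levels of 6.99, 6.85 and 6.83 in low arginine, against 5.23, 6.46 and 6.16 in control, without overlap. Its difference was 0.94 (adjusted p = 0.0744), and 0.58 without control replicate 1 (adjusted p = 0.0168), which was its lowest array. Atf6b, the relative of Atf6, differed by 0.56 (adjusted p = 0.0918) and by 0.76 without control replicate 1 (adjusted p = 0.00475). Ddit3, the stress factor CHOP, had levels of 7.07, 7.10 and 7.03 in low arginine, against 5.47, 7.20 and 6.99 in control. The low arginine change of Ddit3 was 0.51 (adjusted p = 0.486), and -0.03 without control replicate 1 (adjusted p = 0.901). Control replicate 1 was the lowest array for Ddit3, with a difference of -1.62 from the mean of the other controls, where it was the highest for Hspa5.

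**Figure D5:**
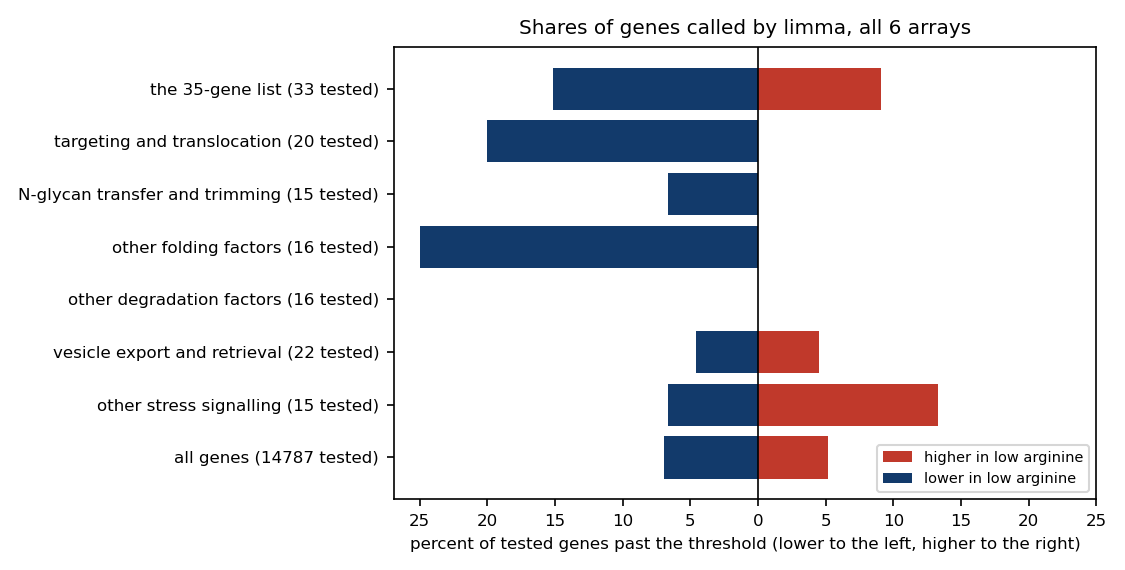
Percent of tested genes that limma called lower (dark, to the left) or higher (red, to the right) in low arginine, for the 35-gene list, the 6 groups of further pathway genes and all genes, with the number tested in brackets. The other folding factors have the longest bar, with 4 of 16 lower and none higher.

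Because B cells and plasma cells are rich in this machinery, markers of other cells were read on the same arrays. The mean level of 7 CD4 T cell markers was 9.19 to 9.39 over low arginine arrays, against 9.38 to 9.51 over control arrays, and none of the 7 was called. B cell markers averaged 2.58 to 2.70 in low arginine, against 2.58 to 2.69 in control, and myeloid and dendritic markers 2.89 to 2.97 in low arginine, against 2.79 to 2.90 in control, with no call in either list. Plasma cell markers averaged 4.50 to 4.60 in low arginine, against 4.65 to 4.79 in control, and 2 of the 6 tested fell, Xbp1 itself and Prdm1. Irf4, of the same list and also active in T cells, differed by 0.54 (adjusted p = 0.233) and was called higher without control replicate 1 (0.80, adjusted p = 0.0291). The defining plasma cell genes Jchain and Tnfrsf17 were under the limit for dim genes. Prdm1, a regulator also active in T cells, had levels of 4.68, 4.56 and 4.27 in low arginine, against 5.94, 5.57 and 6.07 in control (difference -1.36, adjusted p = 0.00474). Markers of CD8 and NK cells averaged 3.70 to 3.82 in low arginine, against 3.74 to 4.08 in control, with none called. Without control replicate 1, 3 of the 4 tested were called lower, Cd8a (-0.95, adjusted p = 0.00857), Cd8b1 (-0.85, adjusted p = 0.00588) and Klrd1 (-0.90, adjusted p = 0.00679), and Eomes was called higher (1.04, adjusted p = 0.00561). With all arrays the adjusted p was 0.241 for Cd8a, 0.0632 for Cd8b1, 0.177 for Klrd1 and 0.0779 for Eomes. The replicate block and array weights also called Cd8b1 lower (adjusted p = 0.0312 and 0.00114). The brightest CD4 T cell marker, Cd3e, differed by 0.10, and the most changed, Thy1, by -0.47, while the B cell genes Cd79b and Blk differed by 0.02 and 0.28 and the myeloid genes Cd68 and Flt3 by 0.21 and 0.22. Control replicate 1 was not the highest array for the B cell or CD4 T cell list. For the plasma cell list it was the highest by little, at 4.79 against 4.76 and 4.65 for control replicates 2 and 3. In that list its excess over the other controls was 0.34 for Xbp1 and 0.76 for Irf4, but -0.52 for Pou2af1. Xbp1 also belongs to the 35-gene list. The part of any of these marker lists in the ER results was not tested. In bulk RNA, fewer cells of a type and less RNA per cell cannot be told apart.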

How the data were processed

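Levels are the log2 values deposited by the authors for 41345 probe sets on 6 arrays. Per the submitters' processing notes they used oligo, a Bioconductor array package. Which version, background correction, normalization and summarization they chose is not stated in what was used here. The log base was taken as 2 from the range, 0.956 to 12.4. Array medians were 2.97 to 3.03. No scanner signals were used here, so distance from background is unknown, and the number of arrays limits the precision.

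Each gene was represented by its brightest probe set among the 23521 with exactly 1 symbol. Of the others 1814 had several symbols and 16010 none. The dimmest 7393 genes (mean under 2.48) were left out. limma 3.58.1 (R 4.3.3) was fitted on 14787 genes with group as the only term, two-sided, with Benjamini-Hochberg adjustment over all of them. Every adjusted p is from limma. The fit was tested on simulated data in which 200 of 14787 genes were changed. It recovered 10% of changes of 0.5 log2 units, 80% of changes of 1 and 96% of changes of 2, with 4 false calls. Small changes were therefore mostly missed in that simulation. Its arrays had the same spread in both groups, and none was shifted over many genes at once, as control replicate 1 was here. These shares may therefore not hold for the ER genes.

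Promoter windows were read from RefSeq's table (Python 3.11.15). The genes and lists were chosen with earlier results of these data known. All listed genes were named; of further pathway genes, per group the 2 with the largest rise and the 2 with the largest fall past the threshold, and 8 stress and oxidase genes whatever their result; of each marker list the brightest and the most changed. The 15 alternatives changed scaling, filter, probe set, prior, weights, block and left out each array. No sequence of proteins was read, so retrieval signals were not analysed here.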

Additional observations from a re-analysis of the deposited data

How the results depend on the processing

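Of 33 genes tested, P4hb and Herpud1 kept their call in all 15 alternatives. The counts of 3 higher and 5 lower became 6 and 9 with array weights, which gave control replicates 1, 2 and 3 weights of 0.239, 5.19 and 0.506 so that the control mean rests mostly on replicate 2, and ran from 1 to 7 for both directions when 1 array was left out. The further pathway genes gave 13 higher and 27 lower with array weights, 0 higher with the replicate block, and 0 to 11 higher and 3 to 15 lower with 1 array left out, where 1 array fewer lowers the residual degrees of freedom from 4. Genes called over all 14787 numbered 5514 with array weights and 500 to 3325 with 1 array left out, against 1799. The median change over the genes ran from -0.390 to 0.0664, above 0 only without control replicate 1. Array weights turned the sign of uncalled genes: Atf6 to 0.27, Hspa5 to 0.39, Hyou1 to 0.44, Dnajb11 to 0.29, Dnajc3 to 0.0909, Creld2 to 0.18, Calr to 0.16, Sec61a1 to 0.0169, Ddit3 to -0.0412, Ero1b to 0.0461 and Cd79b to -0.0209. Cd79b was also at -0.0273 after quantile normalization, -0.0170 after median centring and -0.0412 after 75th percentile centring. With 1 array left out, changes ran from -0.21 to 0.28 for Atf6, -0.32 to 0.34 for Hspa5, -0.32 to 0.49 for Hyou1, -0.48 to 0.41 for Dnajb11, -0.22 to 0.0664 for Dnajc3, -0.60 to 0.0045 for Manf, -0.55 to 0.29 for Creld2, -0.36 to 0.20 for Calr, -0.50 to 0.0811 for Pdia3, -0.0610 to 0.33 for Syvn1, -0.39 to 0.0236 for Derl2, -0.23 to 0.0865 for Sec61a1, -0.19 to 0.0636 for Sec61b, -0.0399 to 0.79 for Sec23b, -0.0268 to 0.84 for Ddit3, -0.0180 to 0.32 for Ppp1r15a, -0.14 to 0.0017 for Ero1b, -0.0881 to 0.0840 for Cd79b and -0.0297 to 0.56 for Cd68. The replicate block gave 2 higher and 4 lower of the 33, and 632 higher and 936 lower of all 14787. Same-numbered arrays had correlated deviations of 0.121, 0.0588 and 0.141, and every array correlated best with its own number, a hint from the data only, so the numbers were not taken as pairs. Other causes were not tested. With 3 arrays a group, their number limits the precision.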
